A study of Homo sapiens with 11 samples.

Results

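The integrated stress response core genes are 10 genes, chosen by name, whose transcripts mark the ATF4 branch of the stress response: ATF4, DDIT3 (which encodes CHOP), TRIB3, ATF3, ATF5, CHAC1, SESN2, DDIT4, PPP1R15A (which encodes GADD34) and CEBPB. They and the other gene lists were chosen with earlier results of these data known. All 10 have a row in both count tables, out of 26485 gene symbols. The cells were Caki-1-SR clone 1, 1 clone resistant to the kinase inhibitor sunitinib and derived from Caki-1, a human line of clear cell renal cell carcinoma (ccRCC) taken from a skin metastasis. RNA was sequenced after 24 h in 3 ODC and 3 CTRL libraries, and after 2 h in 3 ODC and 2 CTRL libraries, 11 libraries in all. ODC is a mixture of the ruthenium compound Rapta-C at 2 µM, the EGFR inhibitor erlotinib at 1 µM, the diabetes drug metformin at 1 µM and the plant compound parthenolide at 5 µM. CTRL cells received none of these 4 compounds. The paper calls these controls untreated in its results and sham-treated elsewhere, and its sham treatment is the solvent DMSO in medium. Whether the CTRL libraries had the solvent is thus not clear. The medium of Caki-1-SR cells holds 1 µM sunitinib, so ODC and CTRL cells alike came from sunitinib culture. The labels do not state that the libraries of a group came from separate cultures, so the p-values measure the spread between these samples only, which may be technical. The comparison asks whether the drug mixture changed the transcript levels of the stress response genes at either time.

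The integrated stress response begins when 1 of a small family of kinases phosphorylates the translation factor eIF2, which slows the start of most protein synthesis while the ATF4 message is translated more. ATF4 is a bZIP transcription factor that pairs with C/EBP proteins and drives genes for amino acid synthesis, amino acid import and tRNA charging, and also ATF3, CHOP, TRIB3, CHAC1, SESN2 and DDIT4. PPP1R15A closes the loop, because its protein brings a phosphatase to eIF2. Since ATF4 protein is set largely by translation, a transcript level is not a measure of ATF4 protein, and neither eIF2 phosphorylation nor protein was analysed here. In bulk RNA, fewer cells of a kind and less RNA per cell cannot be told apart.

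ATF4 and its C/EBP partners bind a composite element with the core TGATGNAA, read TTNCATCA on the other strand. RefSeq promoter windows (GRCh38.p14, 250 bases before to 50 bases after a start site) were found for all 10 members, 18 windows in all. The element core occurred in 2 of these 18 windows (11.1%), against 3.62% of the 35116 windows of all genes, on either strand. These were the window of CHAC1, where the match began 209 bases before the start, and the window of ATF3 at its most upstream start, where it began 191 bases before. For ATF3 and TRIB3 no window lay within 50 bases of the start of the MANE Select transcript. The cyclic AMP response element TGACGTCA, a palindrome bound by ATF and CREB proteins, occurred in 1 of the 18 windows (5.56%) and in 1.85% of all windows. That window was PPP1R15A's, 58 bases before the start. The other 7 members held neither. The 250 bases before the start of CHAC1 (chr15:40953221-40953470, plus strand) and of PPP1R15A (chr19:48872171-48872420, plus strand) are shown because the start site of each window is that of the MANE transcript and the window holds a match, with the element in capitals.
CHAC1: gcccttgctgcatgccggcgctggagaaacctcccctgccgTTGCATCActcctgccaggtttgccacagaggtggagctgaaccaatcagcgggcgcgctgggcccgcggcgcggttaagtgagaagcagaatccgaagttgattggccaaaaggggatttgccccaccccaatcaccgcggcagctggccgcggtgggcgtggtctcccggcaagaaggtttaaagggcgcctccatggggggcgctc
PPP1R15A: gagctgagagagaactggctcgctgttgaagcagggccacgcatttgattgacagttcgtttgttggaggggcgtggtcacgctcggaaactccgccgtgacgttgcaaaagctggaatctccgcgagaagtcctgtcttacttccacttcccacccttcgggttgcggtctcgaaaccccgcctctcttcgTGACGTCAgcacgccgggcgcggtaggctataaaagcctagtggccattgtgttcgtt
A match is a description of the letters only.

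Among the listed target genes of ATF4 and CHOP outside the core, 13 of the 34 with a window held TGATGNAA, in 13 of their 47 windows (27.7%). Stretches of 30 bases around the match are shown, with the element in capitals, for GARS1 (chr7:30594834-30594863, plus strand) and CARS1 (chr11:3057407-3057436, minus strand), the targets with the smallest p at 24 h, and for CEBPG (chr19:33374060-33374089, plus strand) and JDP2 (chr14:75427995-75428024, plus strand), bZIP factors that can pair with ATF family proteins. CEBPG and JDP2 were chosen after their values were seen. Of the 33 windows of the listed bZIP factors, 4 (12.1%) held the element, against 3.62% of all windows. The other matches were in CREB5 and CREB3L2. Their log2 fold changes at 24 h were -0.33 ± 0.17 and 0.045 ± 0.12 (SE), and in both genes ODC and CTRL overlapped.
GARS1: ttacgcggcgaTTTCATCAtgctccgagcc
CARS1: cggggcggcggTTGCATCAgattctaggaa
CEBPG: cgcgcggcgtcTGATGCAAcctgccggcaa
JDP2: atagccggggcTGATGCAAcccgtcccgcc

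The libraries held between 17785229 and 20882856 counts at 24 h and between 25782895 and 31118349 at 2 h, and the least counted member value was 88 counts, for CHAC1. The kidney lineage factor PAX8 (437 to 891 CPM, counts scaled to library size) and the epithelial keratin KRT8 (395 to 979 CPM) were present in all 11 libraries. CA9, a ccRCC marker, and PAX2 were near 0, with at most 0.048 and 0.155 CPM. CTRL 2 h replicate 1 stood apart. It held more than 3 counts of 8 of 8 fibroblast markers, whose summed level was 327 CPM there and 66.8 to 169 CPM in the other 10 libraries. Its COL1A2 level was 37.6 CPM and its COL3A1 level 41.8 CPM, where no other library exceeded 0.356 and 0.194 CPM. COL1A1 was present throughout, at 238 CPM there and at 60.0 to 163 CPM elsewhere. Of 7 endothelial markers, 5 had more than 3 counts in this library, against at most 2 in any other. Its EPCAM level was 3.87 CPM, against at most 0.874 CPM elsewhere. The log2 fold changes of the core genes and the counts of each list at 2 h are therefore also given without this library.

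The members differed widely in level. Scaled per kilobase of the MANE transcript in CTRL at 24 h, ATF4 was the most abundant at 229 ± 30.7 CPM per kb (SD, n = 3). DDIT4, an inhibitor of mTORC1 signalling, followed at 54.0 ± 19.4, and TRIB3, a pseudokinase that binds AKT and ATF4, at 37.8 ± 0.276 CPM per kb. SESN2, which senses leucine and restrains mTORC1, stood at 24.3 ± 4.94 CPM per kb. CHAC1, which degrades glutathione, stood at 17.2 ± 4.06, DDIT3 at 16.6 ± 1.92, ATF5 at 16.0 ± 2.78, PPP1R15A at 12.4 ± 2.19 and CEBPB at 10.8 ± 0.517 CPM per kb. ATF3 was the lowest at 5.42 ± 0.77 CPM per kb. In this order DDIT4 and TRIB3 overlapped between libraries, as did each pair of neighbours from CHAC1 to CEBPB. In ODC at 24 h CHAC1 had the lowest mean of the 10, at 6.60 ± 2.69 CPM per kb, and ATF3 stood at 17.9 ± 13.0 CPM per kb. In the ODC order each pair of neighbours from TRIB3 down to CHAC1 overlapped between libraries, CEBPB and CHAC1 among them.

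**Figure D1:**
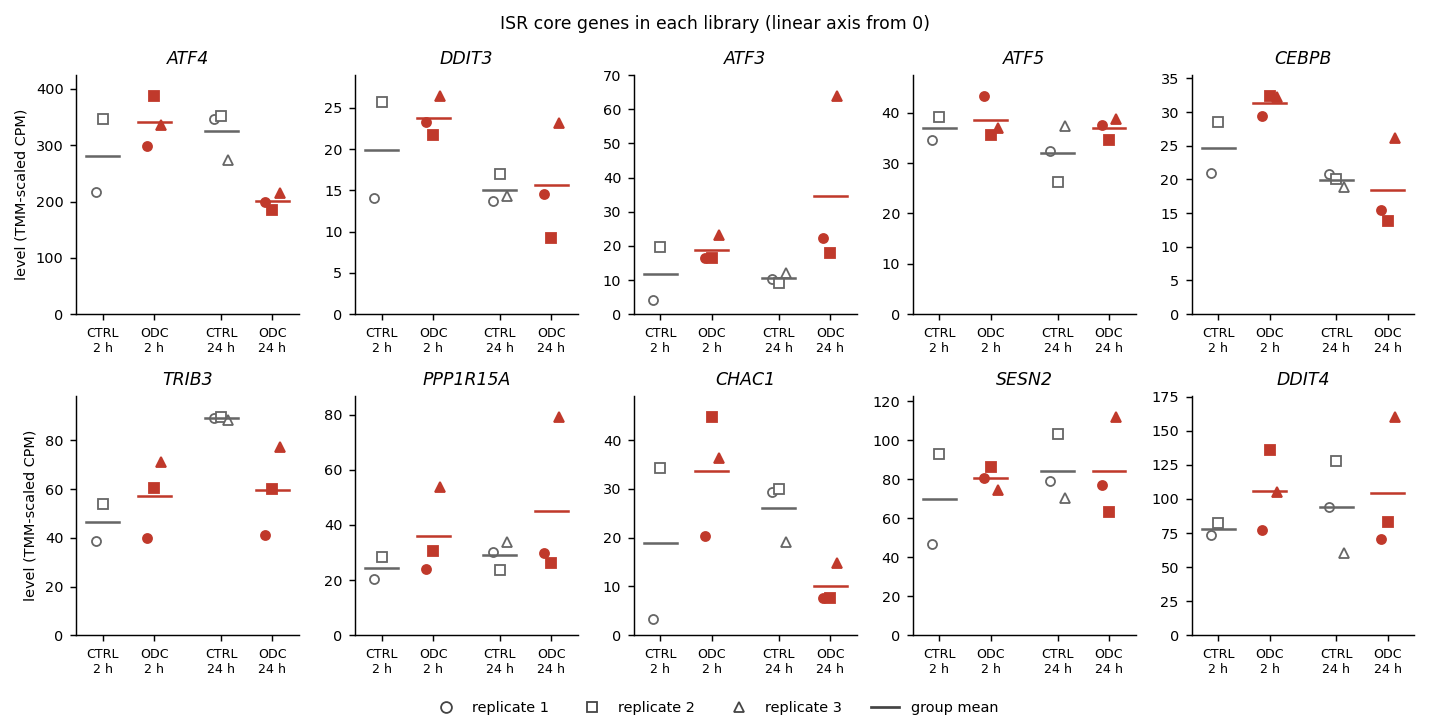
Level of each core gene in each library, in TMM-scaled CPM on a linear axis from 0, for CTRL (open grey) and ODC (filled red) at 2 h and 24 h, with the symbol giving the replicate and the line the group mean. At 24 h the ODC libraries of ATF4, CHAC1 and TRIB3 lie below all CTRL libraries and those of ATF3 above, and at 2 h CTRL replicate 1 is the lowest library for all 10 genes.

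At 24 h the drug mixture went with less ATF4, CHAC1 and TRIB3 transcript and more ATF3 transcript in every ODC library than in any CTRL library, and with no such separation in the other 6 members. After Benjamini-Hochberg adjustment over 12689 genes, none of the 10 differences passed edgeR's quasi-likelihood test (0 of 10 with an adjusted p under 0.05, against 24 genes or 0.189% of all genes tested). At an unadjusted p under 0.05 there were 4 of 10, against 12.2% of all genes: 3 lower (5.04% of all genes) and 1 higher (7.2% of all genes). The groups did not overlap in the same 4 members, and in 17.9% of all genes. The likelihood ratio test of edgeR called 3 members (ATF3, ATF4 and CHAC1) against 3.16% of all genes, and DESeq2 called 2 (ATF4 and CHAC1), against 2.98%, at an adjusted p under 0.05. With libraries of adjacent numbers taken as a replicate block, a pairing the labels do not state, 2 members passed (ATF3 and ATF4), against 5.41% of all genes. With no filter on low counts 1 passed (ATF4), against 0.522%. In a joint fit of all 11 libraries 0 of 10 passed, against 1.4% of all genes. The median log2 fold change was 0.029 over the members and 0.00089 over all genes.

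ATF4 is the transcription factor at the head of the response. Its level was 347, 352 and 274 CPM in CTRL replicates 1 to 3 and 199.9, 186 and 215 CPM in ODC replicates 1 to 3 at 24 h. Every ODC library lay below every CTRL library. The means were 325 ± 43.6 and 200.3 ± 14.7 CPM (SD, n = 3 each), a log2 fold change of -0.70 ± 0.12 (SE), or 1.62-fold lower (adjusted p = 0.0876 by edgeR's quasi-likelihood test, Benjamini-Hochberg adjusted, and 0.0248 with the replicate block). ATF4 lies at chr22:39519695-39522683 on the plus strand of hg38.

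CHAC1, whose product splits glutathione, had the largest decrease of the 10. Its level was 29.4, 30.0 and 19.0 CPM in CTRL and 7.62, 7.73 and 14.8 CPM in ODC at 24 h. The groups did not overlap, although CTRL replicate 3 and ODC replicate 3 came close. The log2 fold change was -1.38 ± 0.29 (SE), 2.60-fold lower (adjusted p = 0.125, edgeR's quasi-likelihood test, Benjamini-Hochberg). Without ODC replicate 3 it was -1.77 and passed the test (adjusted p = 0.0291), where 0.545% of all genes tested passed. CHAC1 lies at chr15:40952962-40956512 on the plus strand.

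TRIB3 dampens ATF4 and CHOP activity. It varied little between the CTRL libraries at 24 h, with 89.4, 89.4 and 88.3 CPM. The ODC libraries were spread more widely, at 41.3, 59.9 and 77.4 CPM, and all lay lower. The log2 fold change was -0.58 ± 0.20 (SE) and did not pass the test (adjusted p = 0.291, edgeR's quasi-likelihood test, Benjamini-Hochberg). TRIB3 lies at chr20:362835-397559 on the plus strand.

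ATF3, a bZIP factor induced by many stresses, was the one member with every ODC library above every CTRL library at 24 h. Its level was 10.4, 9.08 and 12.1 CPM in CTRL and 22.3, 18.1 and 63.8 CPM in ODC. ODC replicate 3 stood far above the other two ODC libraries. The log2 fold change was 1.73 ± 0.45 (SE), 3.31-fold higher, and did not pass the test (adjusted p = 0.18, edgeR's quasi-likelihood test, Benjamini-Hochberg). With the replicate block it was 1.53 (adjusted p = 0.0296 by the same test). Without ODC replicate 3 the log2 fold change of ATF3 was 0.94 (adjusted p = 0.074). ATF3 lies at chr1:212565334-212620777 on the plus strand.

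The remaining transcription factors overlapped between ODC and CTRL at 24 h. DDIT3, whose product CHOP favours cell death when stress lasts, stood at 13.7, 17.0 and 14.3 CPM in CTRL and at 14.5, 9.19 and 23.2 CPM in ODC. Its log2 fold change of 0.061 ± 0.30 (SE) was far smaller than the spread of the ODC libraries. ATF5, an ATF4 relative that serves the mitochondrial stress response, stood at 32.4, 26.3 and 37.5 CPM in CTRL and at 37.5, 34.6 and 38.8 CPM in ODC, with a log2 fold change of 0.21 ± 0.14 (SE). CEBPB, a C/EBP partner of ATF4, stood at 20.8, 20.0 and 18.9 CPM in CTRL and at 15.4, 13.9 and 26.1 CPM in ODC, with a log2 fold change of -0.11 ± 0.23 (SE). ODC replicates 1 and 2 of CEBPB lay below all CTRL libraries and replicate 3 above all of them. Counts of DDIT3, ATF5 and CEBPB carry a limit of annotation: exons of MARS1 on the opposite strand cover 24.3% of the DDIT3 transcript, exons of NUP62 cover 9.77% of the ATF5 transcript and exons of CEBPB-AS1 cover 12.6% of the CEBPB transcript. Whether counting used the strand is not given in the sources used here, and without strand these reads cannot be told apart.

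The feedback and growth-control members also overlapped at 24 h. PPP1R15A stood at 30.1, 23.6 and 33.7 CPM in CTRL and at 30.0, 26.3 and 79.0 CPM in ODC, so that its log2 fold change of 0.63 ± 0.40 (SE) rested on ODC replicate 3 and was -0.052 without it. SESN2 stood at 79.1, 103 and 70.3 CPM in CTRL and at 77.0, 63.3 and 112 CPM in ODC, with a log2 fold change of -0.0042 ± 0.22 (SE). DDIT4 stood at 94.1, 128 and 60.4 CPM in CTRL and at 70.4, 83.2 and 159.8 CPM in ODC, with a log2 fold change of 0.15 ± 0.35 (SE). For the 6 members that overlapped, unadjusted p ran from 0.15 (PPP1R15A) to 0.985 (SESN2).

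The ODC replicates at 24 h did not behave alike. ODC replicate 3 was above both other ODC libraries in 10 of 10 members, where 36.3% of all genes tested were, and was the highest of all 6 libraries in 7 of 10, where 20.0% of all genes tested were. It exceeded the mean of the other two 3.16-fold in ATF3, 2.81-fold in PPP1R15A, 2.08-fold in DDIT4 and 1.96-fold in DDIT3. ATF5 and ATF4 differed least, with ratios of 1.08 and 1.12. Without this library 8 of 10 members were lower in ODC than in CTRL, with a median log2 fold change of -0.32, where 5 of 10 were lower with it. DDIT3, DDIT4 and PPP1R15A then changed sign, to -0.34, -0.29 and -0.052. The total counts (20682681) and scaling factor (1.01) of ODC replicate 3 were within the range of the other libraries at 24 h.

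**Figure D2:**
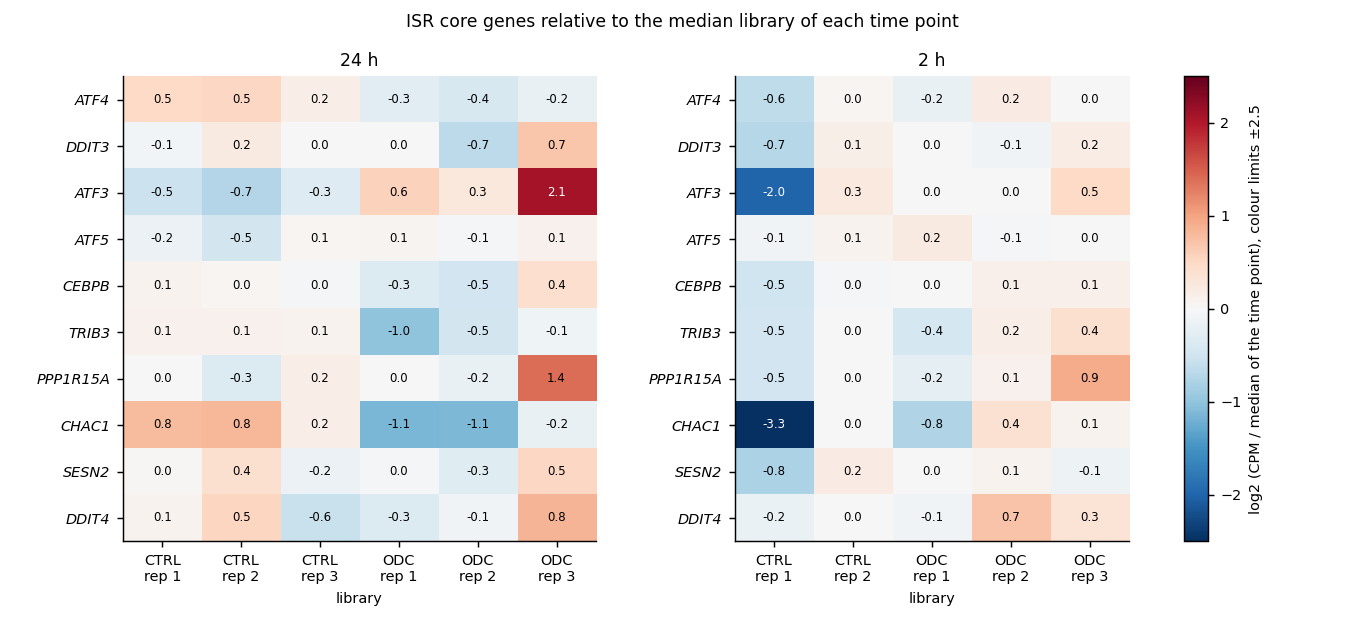
Level of each core gene in each library relative to the median library of its time point, as log2 ratios on a colour scale limited to ±2.5. ODC replicate 3 carries the highest ATF3 and PPP1R15A levels at 24 h, and CTRL replicate 1 at 2 h has the lowest CHAC1 and ATF3 levels.

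At 2 h all 10 members had a higher mean in ODC than in CTRL, but this rested on a single control. No member passed edgeR's quasi-likelihood test after Benjamini-Hochberg adjustment (0 of 10, against 0% of the 13332 genes tested), nor did any by the likelihood ratio test (0.0375% of all genes) or DESeq2 (0.0075%). At an unadjusted p under 0.05 there was 1 of 10, against 2.34% of all genes. This was CEBPB, also the one member whose groups did not overlap, against 15.3% of all genes. The median log2 fold change was 0.32 over the members and -0.006 over all genes.

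The 2 CTRL libraries at 2 h differed widely in several stress genes. CHAC1 stood at 3.40 CPM (88 counts) in CTRL replicate 1 and at 34.3 CPM (972 counts) in CTRL replicate 2, a ratio of 10.1, and only 0.18% of all genes tested differed as much between these controls. The ODC libraries held 20.3, 44.6 and 36.2 CPM of CHAC1, on both sides of CTRL replicate 2. ATF3 stood at 4.14 and 19.7 CPM in the controls, a ratio of 4.75 that 0.698% of all genes reached, and at 16.3, 16.5 and 23.3 CPM in ODC. SESN2 (47.0 and 92.9 CPM in CTRL), DDIT3 (14.1 and 25.7 CPM) and ATF4 (217 and 346 CPM) also lay lower in replicate 1. The smallest ratios, 1.13 in ATF5 and 1.12 in DDIT4, were reached by 53.2% and 57.4% of all genes. Over the 10 members the median absolute log2 ratio between the controls was 0.58, and over all genes tested it was 0.20.

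CTRL replicate 1 at 2 h was below every other library in 10 of 10 members, while 23.7% of all genes tested were lowest there. CTRL replicate 2 lay within the range of the ODC libraries in 8 members, above it in SESN2 and below it in CEBPB. Without CTRL replicate 1 the log2 fold changes at 2 h were -0.024 for ATF4, -0.072 for ATF3, -0.025 for CHAC1, -0.11 for DDIT3, -0.023 for ATF5 and -0.21 for SESN2. Those of CEBPB (0.13), TRIB3 (0.079), DDIT4 (0.36) and PPP1R15A (0.35) stayed above 0. Without CTRL replicate 2 all 10 were positive, and ATF3 (log2 fold change 2.19, adjusted p = 0.0283) and CHAC1 (3.32, adjusted p = 0.0376) passed edgeR's quasi-likelihood test after Benjamini-Hochberg adjustment, as did 0.305% of all genes tested. Both of these fits keep 1 control, which is assumed to vary like the ODC libraries. CTRL replicate 1 is also the library that stood apart in fibroblast and endothelial markers, and their part in its low stress gene levels was not tested.

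Among the members not yet given at 2 h, CEBPB stood at 20.9 and 28.5 CPM in CTRL and at 29.5, 32.3 and 32.2 CPM in ODC, a log2 fold change of 0.34 ± 0.15 (SE, adjusted p = 1.00 by edgeR's quasi-likelihood test, Benjamini-Hochberg adjusted). DDIT4 stood at 73.8 and 82.6 CPM in CTRL and at 77.3, 136 and 105 CPM in ODC, and PPP1R15A at 20.4 and 28.4 CPM in CTRL and at 24.0, 30.6 and 53.8 CPM in ODC. In both genes at least 1 ODC library lay inside the range of the controls. TRIB3 stood at 38.7 and 54.1 CPM in CTRL and at 39.9, 60.6 and 71.0 CPM in ODC, and ATF5 at 34.6 and 39.2 CPM in CTRL and at 43.3, 35.5 and 37.0 CPM in ODC. ATF4 stood at 298, 387 and 337 CPM, DDIT3 at 23.2, 21.8 and 26.4 CPM and SESN2 at 80.8, 86.0 and 74.4 CPM in ODC.

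**Figure D3:**
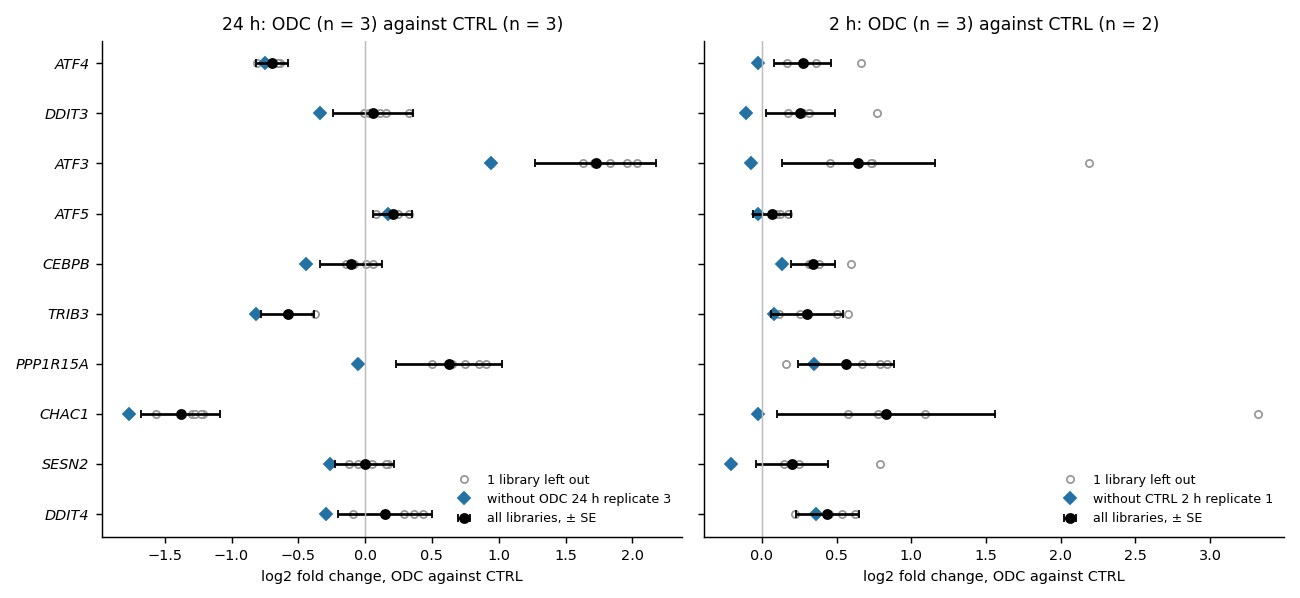
Log2 fold change of ODC against CTRL for each core gene at 24 h (n = 3 and 3) and at 2 h (n = 3 and 2), black points with bars of ± 1 SE, grey circles for fits with 1 library left out, and blue diamonds for the fit without ODC replicate 3 at 24 h or without CTRL replicate 1 at 2 h. ATF4, CHAC1 and TRIB3 stay below 0 and ATF3 above 0 in every 24 h fit, and at 2 h the blue diamonds lie near or below 0 for ATF4, ATF3, CHAC1, DDIT3, ATF5 and SESN2.

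The drug effect at 24 h was set against that at 2 h in a joint fit of all 11 libraries. No member passed edgeR's quasi-likelihood test after Benjamini-Hochberg adjustment (0 of 10, against 0.015% of 13333 genes). At an unadjusted p under 0.05 there were 3 of 10, against 5.93% of all genes. ATF4 differed by -0.98 ± 0.25 (SE, adjusted p = 0.503), TRIB3 by -0.89 ± 0.36 (adjusted p = 0.762) and CHAC1 by -2.22 ± 0.91 (adjusted p = 0.764). In all 3 genes the effect was lower at 24 h than at 2 h. Without CTRL replicate 1 of 2 h the same differences were -0.68 for ATF4, -0.67 for TRIB3 and -1.36 for CHAC1, and TRIB3 no longer had an unadjusted p under 0.05 while ATF3 did, with a difference of 1.79. The sample titles carry a different month for each time point, without saying what was done in it, so time and that batch cannot be told apart.

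Genes that ATF4 and CHOP are known to drive were lower in ODC at 24 h in most cases. Of 48 listed targets outside the core 46 were tested, and 36 had a negative and 10 a positive log2 fold change, with a median of -0.39 against 0.00089 over all genes. None passed the adjusted test, but 25 had an unadjusted p under 0.05, against 12.2% of all genes. Of these 22 were lower (5.04% of all genes) and 3 higher (7.2%). The list was chosen with earlier results of these data known, so these counts are a description. At an adjusted p under 0.05 the likelihood ratio test called 17 (3.16% of all genes), DESeq2 18 (2.98%), the joint fit of all libraries 7 (1.4%) and the fit with the replicate block 22 (5.41%). GARS1, a tRNA synthetase that charges glycine, stood at 772, 757 and 619 CPM in CTRL and at 395, 444 and 440.2 CPM in ODC, a log2 fold change of -0.75 ± 0.11 (SE, adjusted p = 0.0655 by edgeR's quasi-likelihood test, Benjamini-Hochberg adjusted). CARS1, its counterpart for cysteine, stood at 201, 193 and 142 CPM in CTRL and at 90.0, 100.04 and 94.0 CPM in ODC, a log2 fold change of -0.92 ± 0.14 (adjusted p = 0.0655). In both genes all ODC libraries lay below all CTRL libraries.

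The targets were divided by function after their values were seen, so the counts are a description, and ASNS, PSAT1, BBC3 and GDF15 were likewise chosen with their values in view. Over all genes tested at 24 h, 12.2% had an unadjusted p under 0.05, 5.04% lower and 7.2% higher. Of 13 genes for tRNA charging and export, 13 were lower at 24 h, with log2 fold changes from -0.92 to -0.16. An unadjusted p under 0.05 was found for 12 of them. Of 12 genes for amino acid and one-carbon synthesis, 11 were lower and 8 had such a p, with a median of -0.70. ASNS, which makes asparagine, stood at 155, 167 and 97.1 CPM in CTRL and at 65.3, 92.1 and 54.0 CPM in ODC. PSAT1, of serine synthesis, stood at 358, 352 and 249 CPM in CTRL and at 179, 182 and 148 CPM in ODC. The 8 amino acid transporters tested were mixed, with 5 lower, 3 higher and 1 with such a p. Of 5 genes of cell death and growth arrest 3 were higher, and BBC3, which encodes the BH3 protein PUMA, stood at 16.4, 20.1 and 17.1 CPM in CTRL and at 30.2, 25.8 and 36.3 CPM in ODC. The 8 other targets tested were 5 lower and 3 higher, with a median of -0.19, and such a p was found for 1 lower and 1 higher. GDF15, a secreted stress cytokine, had the highest log2 fold change of these 8. It stood at 57.8, 39.2 and 63.0 CPM in CTRL and at 94.8, 44.6 and 218 CPM in ODC. Its groups overlapped, and it was again highest in replicate 3.

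The target genes with the element TGATGNAA in a promoter window were lower at 24 h in 11 of 12 tested, with a median log2 fold change of -0.52, and those with a window and no match in 15 of 21, with a median of -0.25. The difference between these sets was not tested. Without ODC replicate 3 the median of all targets was -0.47 and 37 of 46 were lower. That replicate was the highest of the 6 libraries in 23.9% of the targets, near the 20.0% over all genes, where it was the highest in 7 of the 10 core members.

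At 2 h 38 of 46 targets had a positive log2 fold change, with a median of 0.077. None had an adjusted and 1 (2.17%) an unadjusted p under 0.05, against 2.34% of all genes. The gene with the smallest p was CBS, of cysteine synthesis, at 3.79 and 3.53 CPM in CTRL and at 2.57, 2.49 and 2.73 CPM in ODC (log2 fold change -0.49 ± 0.21, SE). NUPR1, a small stress-induced chromatin protein, followed with a log2 fold change of 0.52 ± 0.29 (SE). CTRL replicate 1 was the lowest of the 5 libraries in 30 of the 46 targets (65.2%, against 23.7% of all genes). Without it only 11 of the 46 were higher, with a median of -0.073.

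The machinery upstream of ATF4 held a share of genes with a small p near that of all genes at 24 h. Of 23 genes for eIF2 kinases, eIF2 and eIF2B subunits and their regulators, 17 were lower and 6 higher at 24 h, with a median of -0.075, none with an adjusted and 3 (13.0%) with an unadjusted p under 0.05, against 12.2% of all genes. EIF2S2, the beta subunit of eIF2, had a log2 fold change of -0.42 ± 0.10 (SE), and EIF2B5, the catalytic subunit of the eIF2 exchange factor, one of -0.25 ± 0.095 (SE). The likelihood ratio test and DESeq2 each called 1 gene of this list (3.16% and 2.98% of all genes), and the fit with the replicate block 2 (5.41%). At 2 h the split was 10 higher and 13 lower, the median -0.0073, and none had an unadjusted p under 0.05. Without CTRL replicate 1 it was 7 higher and 16 lower, the median -0.055. The smallest p belonged there to PPP1CC, a catalytic subunit of the eIF2 phosphatase (log2 fold change -0.15 ± 0.09, SE), and PPP1R15B, its constitutive regulator (0.15 ± 0.11, SE).

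Of 23 listed bZIP factors that can pair with ATF4, CHOP, ATF3 or C/EBP proteins or resemble them, 18 were tested at 24 h. Of these, 9 lay above 0 and 9 below 0 in log2 fold change (median 0.012), none with an adjusted and 7 (38.9%) with an unadjusted p under 0.05, against 12.2% of all genes. These 7 were 4 higher (7.2% of all genes) and 3 lower (5.04%). At an adjusted p under 0.05 the likelihood ratio test and DESeq2 each called 2 (3.16% and 2.98% of all genes). The fit with the replicate block called 4 (5.41%). CEBPD stood at 4.95, 7.15 and 5.03 CPM in CTRL and at 10.7, 12.8 and 9.04 CPM in ODC, a log2 fold change of 0.92 ± 0.21 (SE). CREB3, a membrane-bound bZIP factor, stood at 33.5, 29.5 and 33.3 CPM in CTRL and at 54.1, 54.2 and 39.7 CPM in ODC, a log2 fold change of 0.62 ± 0.14 (SE). CEBPG and JDP2 were lower in all ODC libraries than in any CTRL library, with log2 fold changes of -0.37 ± 0.11 and -0.75 ± 0.23 (SE). CEBPD, CREB1, CREB3, NFIL3 and MAFK were higher in all ODC libraries than in any CTRL library, and the other tested factors overlapped. Over all genes tested, the groups did not overlap in 17.9%. Without ODC replicate 3 the split was 8 higher and 12 lower of 20 tested, with a median of -0.19. At 2 h 20 were tested and 12 were higher, the median was 0.14, and none had an unadjusted p under 0.05, the smallest belonging to BATF2 (0.70 ± 0.39, SE) and DBP (0.55 ± 0.32, SE). Without CTRL replicate 1 the direction turned, with 8 higher and 13 lower of 21 tested and a median of -0.064.

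**Figure D4:**
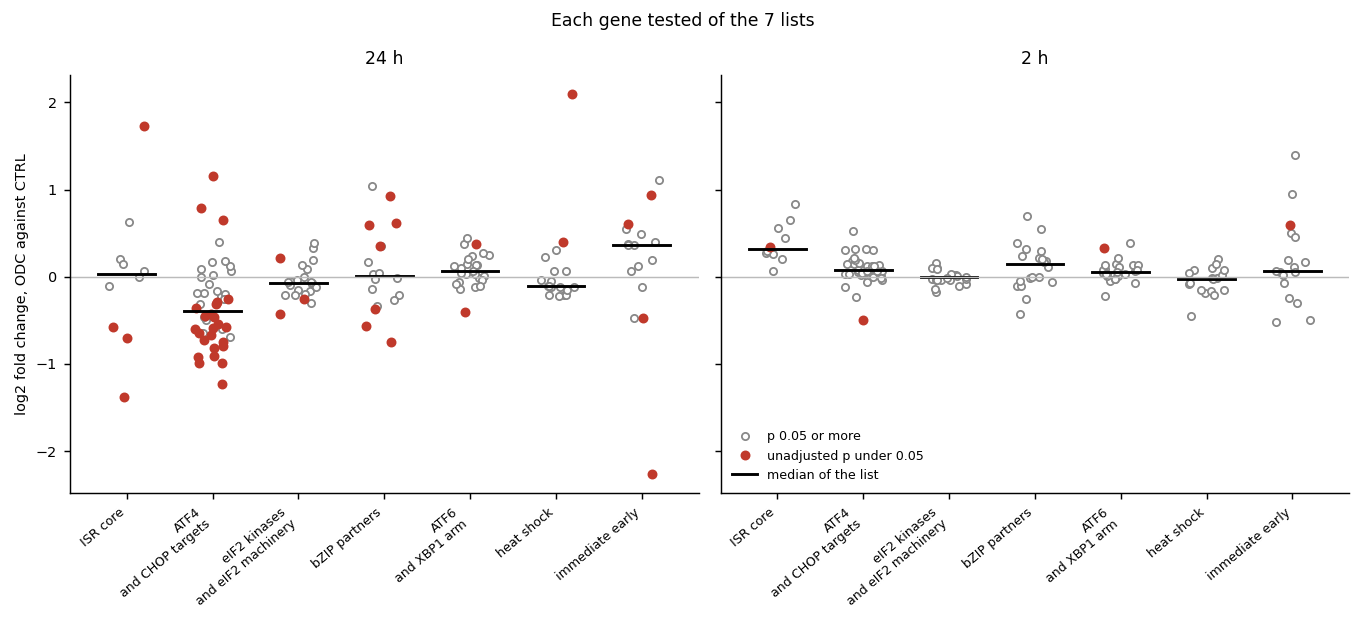
Log2 fold change of ODC against CTRL for every tested gene of the core and of 6 related lists at 24 h and at 2 h, with red points for an unadjusted p under 0.05 and a black line at each list's median. At 24 h the targets of ATF4 and CHOP have the lowest median (-0.39), and at 2 h every core gene lies above 0.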

How the data were processed

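Stranded mRNA libraries were sequenced as single-end reads. Per the methods of the study, the authors aligned reads to hg38 with STAR and counted them per gene with HTSeq 0.9.1. The STAR version is 2.7.0f in the submitters' processing notes, and the methods name a different one. The annotation and the strand setting are not given in the sources used here. The values the authors deposited are raw counts, not normalized, in 1 table per time point. They were tested with edgeR 4.0.16 in R 4.3.3 (TMM factors 0.965 to 1.02, filterByExpr at its count and total minimums of 10 and 15, quasi-likelihood F test, two-sided, Benjamini-Hochberg adjustment over all genes tested), separately at 24 h and 2 h, and jointly for the difference. No replicate pair agreed within sampling noise.

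The floor of 3 counts equals between 0.144 and 0.166 CPM for the 24 h libraries (2 h: 0.0953 to 0.116), and every member was counted far above it. On simulated counts with 200 changed genes, the test recovered 83% of 2-fold changes at 24 h over 12598 genes, 90% at 2 h over 13207 and 63% of differences over 13163. The changed genes were drawn from well-counted genes only. The simulated spread followed the fitted trend, and no simulated library stood apart. These shares can therefore overstate what the test recovers in the real libraries. Alternatives were the filter, the scaling, the test (DESeq2 1.42.0 among them), a joint fit, a pairing of library numbers and each library left out.

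The members and all gene lists were chosen with earlier results of these data known. Named were all members and, of each other list, the 2 genes with the smallest p per comparison, since none passed an adjusted p of 0.05; other genes are marked. Positions and MANE transcripts are from GENCODE 44. Symbols of the lists were matched through RefSeq synonyms where the table holds an older one (12 tRNA synthetases among them, and DELE1).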

Additional observations from a re-analysis of the deposited data

How the results depend on the processing

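The counts of core genes with an adjusted p under 0.05 depended on the test at 24 h. Against 0 by the quasi-likelihood test, there were 3 by the likelihood ratio test (3.16% of all genes) and 2 by DESeq2 (2.98%). There was 1 (ATF4) with no filter on low counts (0.522%) and between 0 and 1 with a library left out. The joint fit of all libraries gave 0, against 1.4% of all genes. The other scalings, a filter at more than 1 CPM and the newer and robust forms of the quasi-likelihood fit also gave 0. With the 24 h libraries of adjacent numbers taken as a replicate block, a pairing the labels do not state, there were 2 (ATF3 and ATF4, against 5.41% of all genes). Within the pairs, deviations from group means had correlations of 0.27, 0.63 and 0.49. Correlations outside these pairs were not computed, so the values alone cannot show a pairing. At 2 h there were 0 in every fit except without CTRL replicate 2, where there were 2, so the range with a library left out was 0 to 2. The difference between the times gave 0 in every fit.

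The share of all genes called at 24 h also differed between fits. It was 3.16% by the likelihood ratio test, 2.98% by DESeq2 and 1.4% in the joint fit. With no filter it was 0.522%, with the block 5.41%, and without ODC replicate 3 0.545%. For the targets of ATF4 and CHOP at 24 h there were 17 by the likelihood ratio test, 18 by DESeq2, 7 in the joint fit, 4 with no filter, 22 with the block and 0 to 2 with a library left out. For the bZIP list there were 2 by the likelihood ratio test and by DESeq2, 1 in the joint fit, 4 with the block and 0 to 1 with a library left out. The eIF2 list had 1 by the likelihood ratio test and DESeq2 and 2 with the block. The immediate early list had 2 by the likelihood ratio test, by DESeq2 and with the block, and 1 with no filter. The heat shock and the ATF6 and XBP1 lists had 1 with the block, and the latter 0 to 1 at 2 h with a library left out. The cause was not tested.

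The signs of ATF4, CHAC1, TRIB3, ATF3 and ATF5 at 24 h held in every fit. DDIT3 changed to -0.012 with the block, and PPP1R15A changed to -0.11 with it in the difference between the times. With 1 library left out at 24 h, DDIT3 ranged from -0.34 to 0.33, DDIT4 from -0.29 to 0.43, PPP1R15A from -0.052 to 0.90, SESN2 from -0.26 to 0.17 and CEBPB from -0.44 to 0.058. At 2 h ATF4 ranged from -0.024 to 0.66, ATF3 from -0.072 to 2.19, CHAC1 from -0.025 to 3.32, DDIT3 from -0.11 to 0.77, SESN2 from -0.21 to 0.79 and ATF5 from -0.025 to 0.17. In the difference, ATF3 ranged from -0.47 to 1.79, DDIT3 from -0.72 to 0.16, PPP1R15A from -0.64 to 0.46 and SESN2 from -0.81 to 0.20. Of the other named genes with a library left out, HSPA5 ranged from -0.42 to 0.057, HSPB1 from -0.12 to 0.45 and SDF2L1 from -0.27 to 0.081 at 24 h. At 2 h CANX ranged from -0.10 to 0.013, CEBPD from -0.074 to 0.49, CHORDC1 from -0.41 to 0.17, CRYAB from -0.82 to 1.09, EGR1 from -2.02 to 4.81, FOSL2 from -0.14 to 0.44 and GARS1 from -0.075 to 0.37. A fit with 1 control has no check on that control.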

Other observations

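Of 25 genes of the ATF6 and XBP1 arm of the unfolded protein response, 17 were higher and 8 lower at 24 h, with a median log2 fold change of 0.062, 0 with an adjusted p under 0.05 by edgeR's quasi-likelihood test, the likelihood ratio test or DESeq2, and 2 (8%) with an unadjusted p under 0.05, against 12.2% of all genes. XBP1, the factor made active by IRE1, stood at 95.8, 84.8 and 93.8 CPM in CTRL and at 61.0, 69.9 and 77.04 CPM in ODC, a log2 fold change of -0.40 ± 0.11 (SE). CANX, an endoplasmic reticulum chaperone, stood at 1495, 1369.9 and 1636 CPM in CTRL and at 1917, 1721 and 2211 CPM in ODC, a log2 fold change of 0.38 ± 0.12 (SE). HSPA5 (BiP), the main chaperone of that compartment, had a log2 fold change of -0.12 ± 0.21 (SE) at 24 h and 0.14 ± 0.081 (SE) at 2 h. Without ODC replicate 3 the split was 11 higher and 14 lower (median -0.0029). At 2 h 20 of the 25 were higher, and the median was 0.052. Without CTRL replicate 1 the split was 15 higher and 10 lower (median 0.027). With all libraries, 1 gene (4%) had an unadjusted p under 0.05 at 2 h, against 2.34% of all genes. This was SDF2L1, with a log2 fold change of 0.33 ± 0.14 (SE).

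Of 18 heat shock genes 12 were lower and 6 higher at 24 h, with a median log2 fold change of -0.11. By any of the 3 tests 0 had an adjusted p under 0.05. An unadjusted p under 0.05 was found for 2 (11.1%), against 12.2% of all genes. CRYAB, a small heat shock protein, was low throughout, at 0.288, 0.574 and 0.332 CPM in CTRL and at 0.836, 3.68 and 0.721 CPM in ODC, and CHORDC1, a co-chaperone of HSP90, had a log2 fold change of 0.39 ± 0.14 (SE). At 2 h 7 were higher and 11 lower, none with an unadjusted p under 0.05, and the smallest p belonged to HSPE1 (-0.21 ± 0.10, SE) and HSPB1 (0.21 ± 0.14, SE). The median at 2 h was -0.021, and without CTRL replicate 1 it was -0.12, with 4 higher and 14 lower.

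Of 16 immediate early genes tested 12 were higher and 4 lower at 24 h, with a median log2 fold change of 0.36. By the quasi-likelihood test 0 had an adjusted and 4 (25%) an unadjusted p under 0.05, against 12.2% of all genes. The likelihood ratio test and DESeq2 each called 2 (3.16% and 2.98% of all genes). EGR1, a zinc finger factor downstream of EGFR and ERK signalling, stood at 41.8, 21.2 and 18.9 CPM in CTRL and at 6.93, 7.73 and 2.45 CPM in ODC, a log2 fold change of -2.26 ± 0.45 (SE). FOSL2, a bZIP factor of the FOS family, stood at 149.7, 122 and 165 CPM in CTRL and at 185, 217 and 261 CPM in ODC. Without ODC replicate 3 8 genes of this list were higher and the other 8 lower (median 0.0088). At 2 h EGR1 was at 40.8 and 2.01 CPM in CTRL and at 3.91, 158 and 6.63 CPM in ODC, so it differed more between libraries of a group than between groups. At 2 h 12 of 17 genes of this list were higher, with a median of 0.067. Without CTRL replicate 1 it was 17 of 18, with a median of 0.77. With all libraries, edgeR's quasi-likelihood test gave 1 gene (5.88%) an unadjusted p under 0.05, against 2.34% of all genes. It gave 0 an adjusted one. The smallest p at 2 h belonged to JUND (0.60 ± 0.17, SE) and KLF4 (0.46 ± 0.29, SE).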
